A study of Mus musculus with 12 samples.

Results

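The genes described here are the solute carriers outside the plasma membrane phosphate, glucose and lactate carriers, in differentiated mouse MC3T3-E1 cells. They were selected on their names and summed counts: every symbol made of Slc, a number, the letter a and another number, with at least 200 counts over the 12 libraries, without Slc20a1, Slc20a2, Slc2a1, Slc2a3, Slc16a1 and Slc16a3. That gave 139 members of 337 such symbols, while 192 symbols lay under the threshold, among them 12 with no count. The rule goes by symbol, so Slc25a3, the phosphate carrier of mitochondria, the sugar phosphate family Slc37 and minor members of the glucose transporter family Slc2 stayed in. By substrate there were 25 members for amino acids, 26 for metal ions, 13 for anions and sulfate, 13 for organic ions and 30 mitochondrial carriers. The other 32 carry sugars and inositol, nucleosides, nucleotide sugars, vitamins, fatty acids or protons, or had no class. Just inside the threshold were Slc22a15, Slc25a10, Slc9a5, Slc26a6 and Slc6a4 with 210, 243, 256, 265 and 270 counts. Just outside were Slc7a8, Slc25a33, Slc33a1, Slc5a6 and Slc25a23 with 199, 192, 180, 180 and 179.

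Solute carriers are membrane proteins that move small molecules down a gradient or couple them to the flow of sodium, protons or a counter-substrate. Osteoblasts use them to take up the amino acids, choline and sulfate from which matrix and membranes are built, to move calcium across their membranes, and to handle zinc, iron and magnesium. The carriers of family Slc25 sit in the inner membrane of mitochondria, apart from a few in peroxisomes, and link the metabolite pools on either side.

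MC3T3-E1 is a wild-type mouse pre-osteoblast line from calvarial bone that forms and mineralizes matrix in osteogenic medium. Every group spent 28 days in the same osteogenic medium, which held 10 mM β-glycerophosphate (BGP, which releases phosphate), dexamethasone at 0.1 µM and ascorbic acid at 50 µg/ml. For the last 24 h, from day 27, the treated groups were given 25(OH)D (25-hydroxyvitamin D, the form found in blood, from which the active hormone is made) with ZK191784, with extra BGP or alone, and control cells had no addition. The labelled doses were 100 µM for 25(OH)D, 4 mM for the extra BGP and 100 µM for ZK191784, a synthetic ligand of the vitamin D receptor that was not given alone. The unit of the 100 µM doses could not be checked here and may be a slip. There were 3 libraries a group, made by a 3′ end sequencing method, and the labels do not say that they came from separate cultures, so p-values measure the spread between these libraries, which may be technical. The comparisons ask which carriers differ with 25(OH)D, and which differ from 25(OH)D alone when ZK191784 or BGP was added.

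Libraries held between 3318723 and 5170980 counts, and members took between 0.662 and 0.885% of them. The libraries differed within every group in the log2 ratio of counts of ribosomal protein genes to counts of ribosomal pseudogenes and Gm-numbered genes, which ran from -1.78 to -0.445. In 4 of 4 groups the library with the highest ratio had the highest summed level of members. The sums ran from 6217 to 9420 CPM (counts scaled to library size by TMM). Single members differed in this: 36 were highest in the library of the highest ratio in all 4 groups, and 12 were in ratio order in all 4. Others, such as Slc24a3 and Slc25a13, were highest in it in 0 groups. The share over all genes was not counted. All 6 osteoblast markers were counted in every group. Their summed CPM, carried by Col1a1 and Ibsp, was 17553 to 25170 with 25(OH)D + ZK191784, 4986 to 6086 with 25(OH)D + BGP, 4790 to 7766 with 25(OH)D and 33357 to 54094 in control. Alpl went the other way, with 378, 601, 562 and 329 counts in these groups. Among markers of other cell types, Cdh5 (endothelial) had 0 counts but Pecam1 and Kdr had 1500 and 415, and Ptprc (haematopoietic) had 10899 while Adgre1, Csf1r and Cd3e had 64, 99 and 208. Of the chondrocyte markers Sox9 had 5660, Acan 18, and Col2a1 274 with 25(OH)D + ZK191784, 26 with 25(OH)D + BGP, 14 with 25(OH)D and 411 in control. The muscle markers Myod1, Myog and Ckm had 7, 0 and 1. The part of these differences in the results below was not tested, and in bulk RNA fewer cells of a type and less RNA per cell cannot be told apart.

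With 25(OH)D, 23 of the 139 members changed against control, 12 higher and 11 lower, at an adjusted p under 0.05. This is 16.5% of members, beside 8.68% of all 14394 genes tested (4.76% higher and 3.93% lower) and 9.98% of the tested genes that had at least 200 summed counts. The median log2 difference of members was -0.03, beside -0.05 over all genes, with values from -2.18 to 4.81. With ZK191784 added, 14 members changed against 25(OH)D alone, 5 higher and 9 lower. That is 10.1% of members, beside 3.53% of all genes (1.42% higher and 2.11% lower) and 4.12% of those with at least 200 summed counts. The median was -0.03, beside 0.02 over all genes. These 2 comparisons share the 25(OH)D libraries, so for each member the values of every group are given side by side. All 139 members passed the filter on low counts. Slc22a15 alone met the 200-count rule through its highest group, control: with that group set to the mean of the rest its sum would be 181. Its call with 25(OH)D against control is therefore no finding, and without it 22 of 138 members were called, 12 higher and 10 lower. That check replaced the highest group only, and Slc37a2 met the rule only through the 25(OH)D and BGP groups together. Slc37a2 is still in these counts, and its calls are given below as a description.

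**Figure D1:**
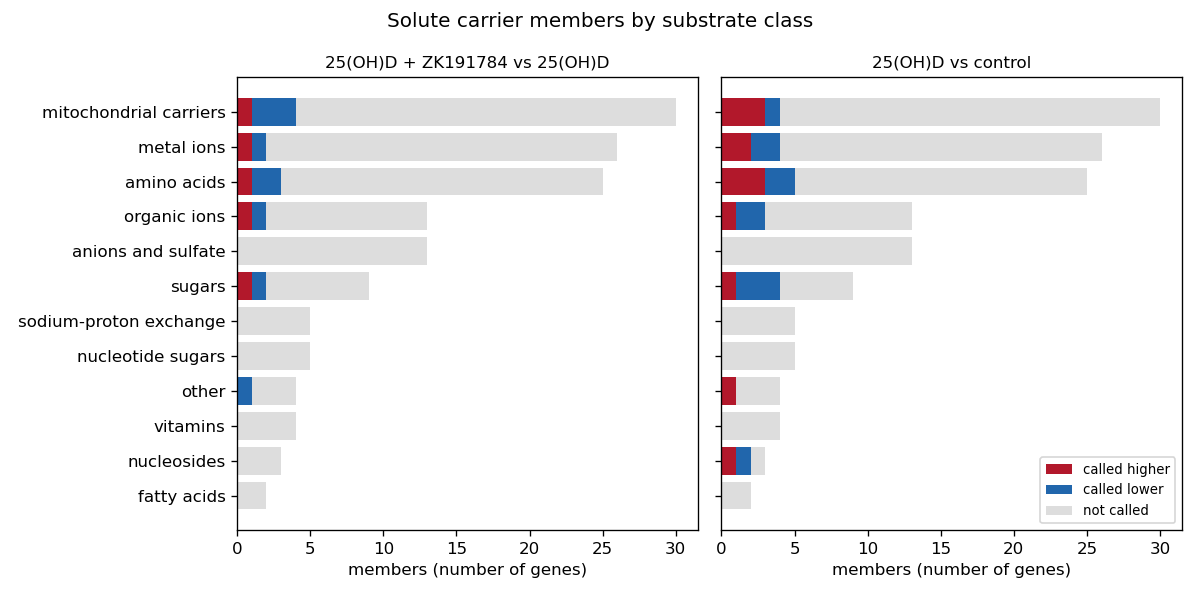
Number of members called higher or lower in each substrate class, for 25(OH)D + ZK191784 against 25(OH)D and for 25(OH)D against control, with the members not called in grey. Amino acid carriers had 3 higher and 2 lower of 25 with 25(OH)D against control, while anion and sulfate carriers had no call in either comparison. Over all genes tested, 8.68% were called with 25(OH)D against control and 3.53% with ZK191784 against 25(OH)D alone. Counts in classes this small are not read as a result about a class.

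Stretches of promoter are shown for 3 called carriers whose levels are given below, an amino acid carrier and 2 carriers of metal ions. Each holds a short motif that was searched for in its class, and other carriers with a match, such as Slc30a1, are not shown. Slc24a3 and Slc41a3 carry calcium and magnesium, and no regulation of them through the motif is implied. The amino acid response element, bound by ATF4, was searched as TGATGNAA, the metal response element, bound by MTF1, as TGCACNC and TGCGCNC, and the core of the antioxidant response element as TGACNNNGC, on both strands and with overlaps allowed. Sequences are RefSeq promoter windows of 300 bases on GRCm38.p6, from 250 bases before the start to 50 after it, written 5′ to 3′ on the gene's strand, with the motif in capitals. The stretches are chr11:20332710-20332813 (minus strand) for Slc1a4, chr2:145167555-145167654 (plus strand) for Slc24a3 and chr6:90618996-90619095 (plus strand) for Slc41a3.
Slc1a4: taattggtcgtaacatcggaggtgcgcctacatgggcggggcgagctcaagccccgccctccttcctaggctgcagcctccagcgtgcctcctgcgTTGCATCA
Slc24a3: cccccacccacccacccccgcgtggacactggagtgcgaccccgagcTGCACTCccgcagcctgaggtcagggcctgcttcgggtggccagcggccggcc
Slc41a3: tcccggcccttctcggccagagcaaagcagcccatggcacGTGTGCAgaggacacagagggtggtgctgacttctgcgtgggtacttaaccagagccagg
The capitals begin 4 bases before the start in Slc1a4 (the reverse form), 173 before it in Slc24a3 and 210 before it in Slc41a3 (the reverse form). A window was matched for 104 of 139 members. TGATGNAA was in 2 of 19 matched amino acid carriers, Slc1a4 and Slc7a7, beside 3.97% of all 32851 windows, and TGACNNNGC in 5 of 19, beside 12.4%. Among 22 matched metal ion carriers, TGCACNC was in 9, beside 12.6% of all windows, and TGCGCNC in 7, beside 15.4%. A carrier was counted if any of its windows held the motif, and some carriers had several windows, whereas the percentages are of single windows. The counts and percentages are therefore unlike measures, and no excess can be read from them. A match describes the letters only and is neither a site nor a cause.

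Of the 25 amino acid carriers, 3 rose and 2 fell with 25(OH)D against control, and the class median was 0.17 on the log2 scale. The carriers of neutral amino acids Slc1a4, Slc43a2 and Slc38a4 rose, while the glutamate and aspartate carrier Slc1a3 and the carrier of cationic amino acids Slc7a2 fell. Slc1a4, which exchanges alanine, serine and cysteine, had 24.4, 21.2 and 21.7 CPM with 25(OH)D + ZK191784, 44.3, 33.4 and 40.1 with 25(OH)D + BGP, 51.9, 61.7 and 58.4 with 25(OH)D alone and 24.9, 30.6 and 22.4 in control. The 3 libraries with 25(OH)D alone were the highest of the 12, and those with ZK191784 overlapped control. The log2 fold change was 1.14 ± 0.18 for 25(OH)D against control (adjusted p = 0.00115) and -1.35 ± 0.18 for added ZK191784 against 25(OH)D alone (adjusted p = 0.00094).

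Slc43a2, a uniporter of branched-chain amino acids and phenylalanine, had 97.7, 111 and 104 CPM with 25(OH)D + ZK191784, 128, 117 and 131 with 25(OH)D + BGP, 195, 174 and 185 with 25(OH)D alone and 77.2, 89.8 and 78.3 in control. Levels were highest with 25(OH)D alone, and those with ZK191784 or BGP lay between them and control without overlap. It rose with 25(OH)D against control by 1.17 ± 0.13 on the log2 scale (adjusted p = 6.85e-05) and was lower with ZK191784 than with 25(OH)D alone, at -0.83 ± 0.12 (adjusted p = 0.00219). Slc38a4, a sodium-coupled carrier of neutral amino acids, had 6.76, 5.30 and 3.48 CPM with 25(OH)D + ZK191784, 11.8, 8.14 and 8.68 with 25(OH)D + BGP, 12.8, 8.92 and 11.6 with 25(OH)D alone and 5.04, 3.16 and 3.09 in control. Its 25(OH)D and control libraries did not overlap, and its log2 fold change between them was 1.56 ± 0.34 (adjusted p = 0.0109, 0.0552 without control library 2). With ZK191784 against 25(OH)D alone its log2 difference was -1.10 ± 0.33 and was not called (adjusted p = 0.109).

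Slc1a3, known as GLAST, had 28.3, 27.5 and 32.8 CPM with 25(OH)D + ZK191784, 7.29, 16.7 and 13.9 with 25(OH)D + BGP, 12.3, 12.1 and 13.7 with 25(OH)D alone and 39.1, 42.4 and 58.0 in control. Every 25(OH)D library was under every control library, and the ZK191784 libraries lay between the groups. It fell by 1.87 ± 0.27 on the log2 scale with 25(OH)D against control (adjusted p = 0.000755). It was higher with ZK191784 than with 25(OH)D alone (log2 fold change 1.22 ± 0.27, adjusted p = 0.0266), a call that was lost without any 1 of the 6 libraries (adjusted p from 0.0589 to 0.125). Slc7a2 had 14.1, 13.5 and 11.3 CPM with 25(OH)D + ZK191784, 7.85, 5.99 and 5.21 with 25(OH)D + BGP, 9.90, 5.06 and 9.77 with 25(OH)D alone and 24.9, 24.7 and 24.0 in control. The control libraries were the highest, the ZK191784 libraries came next, and the 25(OH)D and BGP libraries overlapped. Its log2 fold change was -1.58 ± 0.27 with 25(OH)D against control (adjusted p = 0.00267), and 0.66 ± 0.28 with ZK191784 against 25(OH)D alone (adjusted p = 0.359, not called).

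Of the carriers known in many cells for feeding mTORC1 or for responding to amino acid starvation, Slc3a2, Slc7a5, Slc1a5 and Slc38a2 were not called by edgeR. Slc1a4 was called with 25(OH)D against control and with ZK191784 against 25(OH)D alone, as given above. The calls of Slc3a2 and Slc1a5 with 25(OH)D depended on the setting. Slc3a2, the heavy chain of the heteromeric carriers, had 108, 94.7 and 69.8 CPM with 25(OH)D + ZK191784, 92.8, 158 and 104 with 25(OH)D + BGP, 172, 155 and 87.7 with 25(OH)D alone and 60.2, 62.8 and 89.9 in control. The control libraries were low except library 3, which overlapped the lowest 25(OH)D library. Its log2 difference of 0.96 ± 0.29 missed the threshold by edgeR (adjusted p = 0.058). It was called by DESeq2 (adjusted p = 0.0200), with no low-count filter (8.94e-05), with a filter at a CPM of at least 2 in 3 libraries (0.0474), and without 25(OH)D library 3 (0.0127) or control library 3 (0.0284). Its light chain partner Slc7a5 had 17.1, 13.7 and 28.8 CPM with 25(OH)D and 40.3, 25.1 and 12.6 in control, ranges that overlapped (adjusted p = 0.682). Slc1a5, the glutamine exchanger, differed by 0.71 ± 0.34 (adjusted p = 0.281, but 0.0190 with no low-count filter and 0.0288 without control library 3) and Slc38a2, the starvation-regulated carrier with the most counts of its class, by -0.03 ± 0.32 (adjusted p = 0.977). With ZK191784 the log2 differences of these 4 from 25(OH)D alone ran from -0.60 to 0.00, and none was called by edgeR (Slc3a2 was, with the library ratio below as a covariate, at an adjusted p of 0.00111). Slc7a11, the cystine carrier, had 43 counts in all and is no member. Slc36a2, a proton-coupled carrier of small amino acids that was chosen after its values were seen, had 624, 609 and 463 CPM with 25(OH)D + ZK191784, 172, 266 and 239 with 25(OH)D + BGP, 336, 280.1 and 199 with 25(OH)D alone and 273, 274 and 512 in control. All 3 ZK191784 libraries were above all 25(OH)D libraries, with a log2 difference of 1.06 ± 0.28 and an adjusted p of 0.0603 by edgeR. It was called by DESeq2 (adjusted p = 0.0139), with no low-count filter (1.42e-07), with the CPM filter (0.0488) and in the fit of the 2 groups alone (0.0243).

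**Figure D2:**
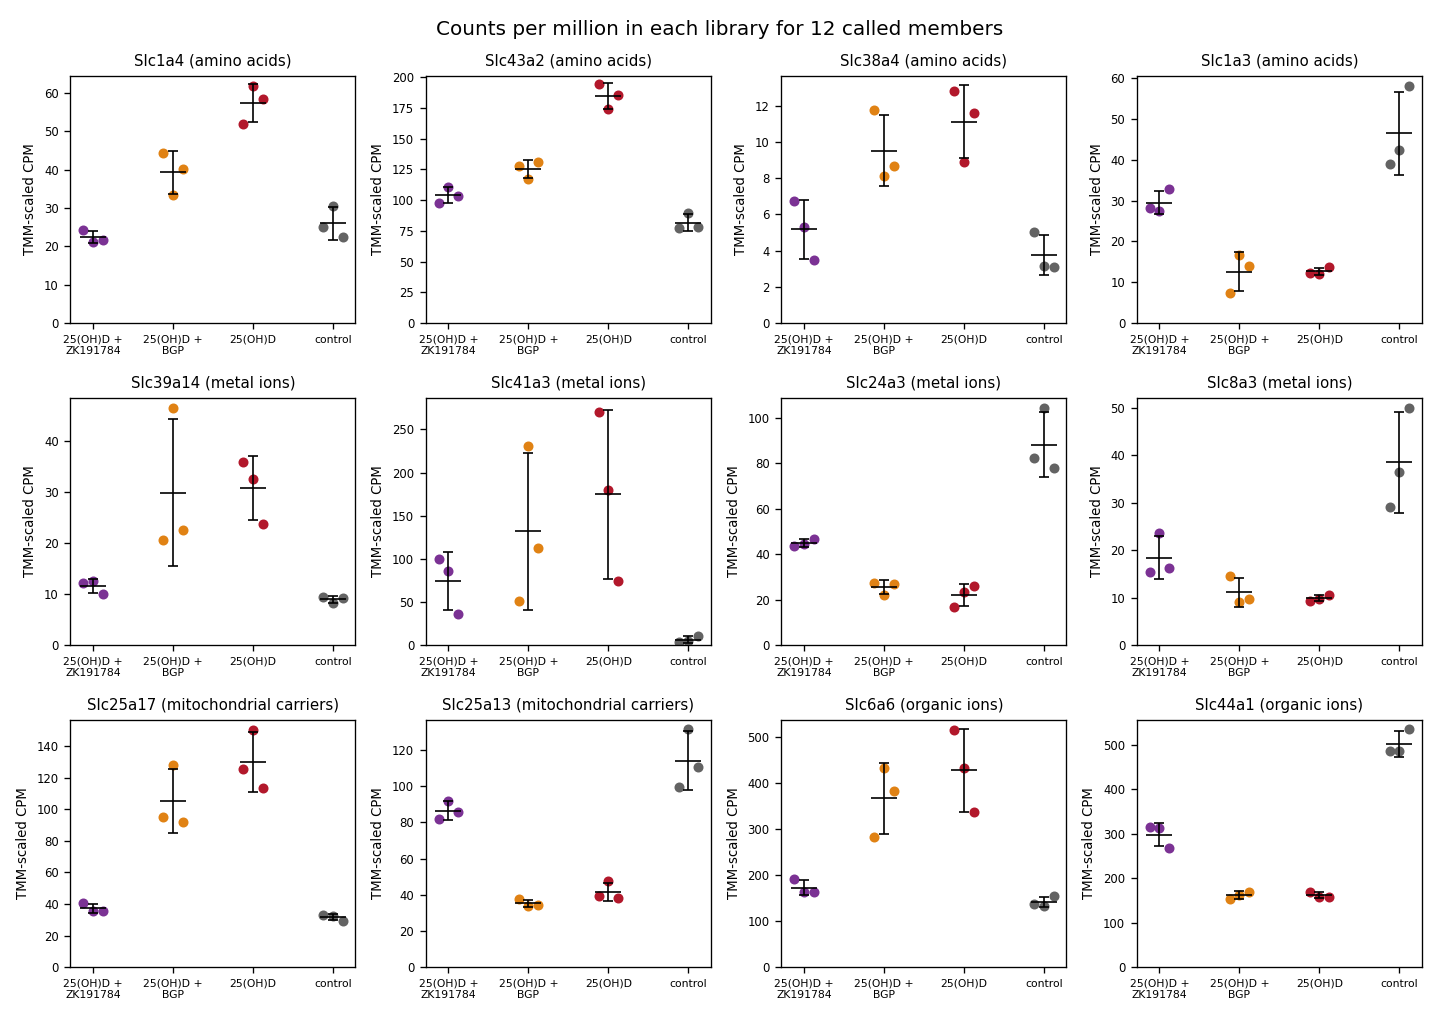
TMM-scaled CPM of 12 called members in each of the 12 libraries, by group; points are libraries, and bars give mean and SD (n = 3). Slc1a4, Slc6a6 and Slc25a17 have their highest means with 25(OH)D, and Slc44a1 and Slc24a3 are highest in control with 25(OH)D + ZK191784 between.

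Of the 26 metal ion carriers, 2 rose and 2 fell with 25(OH)D against control, and the class median was 0.12. The magnesium carrier Slc41a3 and the zinc, iron and manganese importer Slc39a14 rose, and the calcium extruders Slc24a3 and Slc8a3 fell. Slc41a3, a sodium-dependent magnesium exporter of mitochondria, had 100.3, 85.3 and 36.3 CPM with 25(OH)D + ZK191784, 51.6, 231 and 113 with 25(OH)D + BGP, 270.1, 180.3 and 74.0 with 25(OH)D alone and 3.84, 4.22 and 10.7 in control. Every library with 25(OH)D was above every control library, and in every group the library of the highest library ratio had the highest level, a link whose part was not tested. The means ± SD were 175 ± 98.2 CPM with 25(OH)D and 6.25 ± 3.86 in control (n = 3 each), a 28.0-fold fitted difference. The log2 fold change was 4.81 ± 0.71 (adjusted p = 0.00084). With ZK191784 it was -1.24 ± 0.59 against 25(OH)D alone (adjusted p = 0.459, not called), and 3.57 ± 0.68 against control (adjusted p = 0.0333). When the library ratio was a covariate, the first of these ZK191784 values was -1.09 ± 0.14 (adjusted p = 1.64e-07).

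Slc39a14 had 12.1, 12.5 and 10.0 CPM with 25(OH)D + ZK191784, 20.5, 46.5 and 22.6 with 25(OH)D + BGP, 35.8, 32.5 and 23.8 with 25(OH)D alone and 9.35, 8.22 and 9.28 in control. All 25(OH)D and BGP libraries were above the others, and the ZK191784 libraries were just above control. It rose by 1.78 ± 0.31 on the log2 scale with 25(OH)D against control (adjusted p = 0.00284). With ZK191784 against 25(OH)D alone the value was -1.41 ± 0.31 (adjusted p = 0.0224), and this call was lost without 25(OH)D library 1 or 2 or any 1 of the ZK191784 libraries (adjusted p from 0.0726 to 0.109).

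Slc24a3, a potassium-dependent sodium/calcium exchanger, had 43.4, 44.6 and 46.7 CPM with 25(OH)D + ZK191784, 27.5, 21.8 and 26.8 with 25(OH)D + BGP, 16.8, 23.1 and 26.1 with 25(OH)D alone and 82.5, 104 and 77.8 in control. Control was the highest and ZK191784 came next, while the 25(OH)D and BGP libraries overlapped at the lowest level. It fell by 2.00 ± 0.20 on the log2 scale with 25(OH)D against control (adjusted p = 3.22e-05). It was higher with ZK191784 than with 25(OH)D alone by 1.03 ± 0.19 (adjusted p = 0.00958) and lower than in control, at -0.97 ± 0.19 (adjusted p = 0.0333). Slc8a3, a sodium/calcium exchanger, had 15.4, 23.6 and 16.3 CPM with 25(OH)D + ZK191784, 14.6, 8.99 and 9.64 with 25(OH)D + BGP, 9.36, 9.64 and 10.6 with 25(OH)D alone and 29.0, 36.5 and 50.0 in control. Its control libraries were the highest and its ZK191784 libraries were above all 25(OH)D libraries. The log2 fold change was -1.96 ± 0.28 with 25(OH)D against control (adjusted p = 0.000622) and 0.90 ± 0.28 with ZK191784 against 25(OH)D alone (adjusted p = 0.129, not called).

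The other metal ion carriers named by rule were not called by edgeR in either comparison. Between 25(OH)D and control the zinc exporter Slc30a1 differed by 0.29 ± 0.26 on the log2 scale (adjusted p = 0.612), and the iron exporter Slc40a1 by 0.07 ± 0.51 (adjusted p = 0.958). The iron importer Slc11a2 differed by -0.29 ± 0.18 (adjusted p = 0.428), and the sodium/calcium exchanger Slc8a1 by 0.24 ± 0.42 (adjusted p = 0.81). Slc41a1, a magnesium exporter of the same family as Slc41a3, had 24.6, 18.6 and 14.3 CPM with 25(OH)D and 9.59, 13.3 and 9.75 in control. These did not overlap, but the log2 difference of 0.81 ± 0.27 missed the threshold by edgeR (adjusted p = 0.0908). It was called by DESeq2 (adjusted p = 0.0390) and without 25(OH)D library 3 (0.0492). Slc30a4, a zinc carrier with the most counts of the class, differed by -0.36 ± 0.37 (adjusted p = 0.647). With the library ratio as a covariate Slc30a4 was called with 25(OH)D against control (-0.57 ± 0.11, adjusted p = 9.41e-05). In that fit it was also called with ZK191784 against 25(OH)D alone (0.49 ± 0.11, adjusted p = 0.000805).

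By edgeR 0 of 13 anion and sulfate carriers were called in either comparison, with 1 at an unadjusted p under 0.05 in each and 0 called by DESeq2. Over all genes tested, 8.68% were called with 25(OH)D against control and 3.53% with ZK191784 against 25(OH)D alone. With 13 genes, a count of 0 is not read as a result about the class. The class median was -0.09 with 25(OH)D against control and 0.05 with ZK191784 against 25(OH)D alone. Slc26a2, the sulfate carrier that supplies proteoglycan sulfation in cartilage and bone, had 57.5, 42.9 and 47.8 CPM with 25(OH)D + ZK191784, 55.3, 69.2 and 56.5 with 25(OH)D + BGP, 79.4, 74.7 and 58.9 with 25(OH)D alone and 53.7, 57.7 and 71.8 in control. The 25(OH)D and control libraries overlapped (log2 difference 0.22 ± 0.18, adjusted p = 0.576). All ZK191784 libraries were under all 25(OH)D libraries, at a log2 difference of -0.52 ± 0.18 that was not called (adjusted p = 0.201). With the library ratio as a covariate this difference of Slc26a2 was called (-0.50 ± 0.13, adjusted p = 0.00651). In that fit Slc26a7, of the same class and chosen after its values were seen, was called in both comparisons. The chloride/bicarbonate exchanger Slc4a2 differed by -0.30 ± 0.18 between 25(OH)D and control (adjusted p = 0.406), and the sodium-potassium-chloride cotransporter Slc12a2 by -0.29 ± 0.17 (adjusted p = 0.41).

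The sodium-sulfate cotransporter Slc13a4 lay under the count rule, with 126 counts, and stands outside these 13, but it was tested. It had 17, 15 and 9 counts with 25(OH)D + ZK191784, 1, 3 and 4 with 25(OH)D + BGP, 0, 1 and 1 with 25(OH)D alone and 17, 33 and 25 in control. The counts with 25(OH)D alone lay below every count in control and every count with ZK191784. Scaled to library size, 25(OH)D stood at 0.0300 times control (95% exact binomial interval 0.00356 to 0.112, counting error only), and edgeR called it lower (adjusted p = 0.000489, DESeq2 0.000122). The ratio of ZK191784 to 25(OH)D alone was 17.6 (4.56 to 149.8), and edgeR called it higher (adjusted p = 0.00628, DESeq2 0.00651). Slc13a4 passed the low-count filter only through control and ZK191784 libraries, where it was high. In the fit of ZK191784 and 25(OH)D alone it did not pass and had no value. Its calls are therefore given as a description and are no finding.

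Among 13 organic ion carriers, 1 rose and 2 were called lower with 25(OH)D against control, or 1 without Slc22a15. Slc6a6, the taurine carrier, had 192, 163 and 164 CPM with 25(OH)D + ZK191784, 284, 434 and 383 with 25(OH)D + BGP, 516, 433 and 336 with 25(OH)D alone and 138, 134 and 155 in control. Libraries with 25(OH)D alone did not overlap with control or with ZK191784, and ZK191784 was above control without overlap. Means ± SD were 173 ± 16.4 CPM with ZK191784, 428 ± 89.9 with 25(OH)D alone and 142 ± 11.1 in control (n = 3 each). It rose 3.02-fold with 25(OH)D against control (log2 1.59 ± 0.19, adjusted p = 0.000157), and was 2.48-fold lower with ZK191784 than with 25(OH)D alone (log2 -1.31 ± 0.19, adjusted p = 0.00165). Slc44a1, a choline carrier that supplies phosphatidylcholine synthesis, had 314, 313 and 267 CPM with 25(OH)D + ZK191784, 153, 162 and 169.9 with 25(OH)D + BGP, 169.8, 158 and 157 with 25(OH)D alone and 486, 486 and 537 in control. The 3 levels of control, ZK191784 and the 25(OH)D and BGP libraries together did not overlap. It fell by 1.64 ± 0.12 on the log2 scale with 25(OH)D against control (adjusted p = 3.72e-06), the smallest adjusted p of the members. With ZK191784 it was higher than with 25(OH)D alone by 0.88 ± 0.12 (adjusted p = 0.00117) and lower than in control, at -0.75 ± 0.12 (adjusted p = 0.0112).

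Slc22a15, a carrier of zwitterions, had 2.87, 4.34 and 6.09 CPM with 25(OH)D + ZK191784, 4.49, 3.00 and 4.82 with 25(OH)D + BGP, 2.41, 1.93 and 1.06 with 25(OH)D alone and 3.84, 6.11 and 6.90 in control. These are few counts, and the control and 25(OH)D libraries did not overlap. The log2 difference was -1.63 ± 0.44, given as a description, since the control counts brought the gene over the count rule. Among 4 members with no substrate class, the heme carrier Slc48a1, which recycles heme iron from endosomes and lysosomes, had 146, 142 and 145 CPM with 25(OH)D + ZK191784, 209, 201 and 225 with 25(OH)D + BGP, 225, 258 and 222 with 25(OH)D alone and 90.4, 91.7 and 106 in control. Control was the lowest, ZK191784 lay between, and 25(OH)D and BGP were the highest. The log2 fold change was 1.29 ± 0.13 with 25(OH)D against control (adjusted p = 3.19e-05) and -0.70 ± 0.12 with ZK191784 against 25(OH)D alone (adjusted p = 0.00622).

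The mitochondrial carrier family had 30 members, of which 3 rose and 1 fell with 25(OH)D against control, and 1 was higher and 3 lower with ZK191784 than with 25(OH)D alone. Slc25a17, a carrier of this family that sits in peroxisomes and moves coenzyme A, FAD and NAD, had 40.7, 35.7 and 35.4 CPM with 25(OH)D + ZK191784, 95.1, 128 and 91.8 with 25(OH)D + BGP, 126, 151 and 114 with 25(OH)D alone and 33.1, 32.5 and 29.5 in control. Every 25(OH)D library was above every ZK191784 library and every control library. The means ± SD were 37.3 ± 2.99 CPM with ZK191784, 130.0 ± 18.9 with 25(OH)D and 31.7 ± 1.92 in control (n = 3 each). It rose 4.10-fold with 25(OH)D against control (log2 2.04 ± 0.17, adjusted p = 9.78e-06). It was 3.48-fold lower with ZK191784 than with 25(OH)D alone (log2 -1.80 ± 0.17, adjusted p = 8.18e-05).

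Slc25a13, or citrin, the aspartate/glutamate carrier of the malate-aspartate shuttle, had 81.9, 92.1 and 85.7 CPM with 25(OH)D + ZK191784, 37.6, 34.0 and 34.3 with 25(OH)D + BGP, 39.3, 47.5 and 38.0 with 25(OH)D alone and 99.8, 132 and 111 in control. The control libraries were the highest, ZK191784 lay between, and the 25(OH)D and BGP libraries were the lowest. It fell by 1.45 ± 0.15 on the log2 scale with 25(OH)D against control (adjusted p = 5.74e-05), and was higher with ZK191784 than with 25(OH)D alone by 1.06 ± 0.15 (adjusted p = 0.00164). Slc25a32, a folate or FAD carrier, had 65.7, 65.1 and 77.2 CPM with 25(OH)D + ZK191784, 147, 106 and 144 with 25(OH)D + BGP, 177, 162 and 159 with 25(OH)D alone and 143, 109.8 and 94.9 in control. The ZK191784 libraries were the lowest of all, under control too. It was lower with ZK191784 than with 25(OH)D alone, at -1.26 ± 0.18 on the log2 scale (adjusted p = 0.00165), while the differences of 25(OH)D from control (0.51 ± 0.18, adjusted p = 0.11) and of ZK191784 from control (-0.74 ± 0.18, adjusted p = 0.109) were not called.

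Slc25a45, an orphan member, had 27.6, 29.9 and 29.4 CPM with 25(OH)D + ZK191784, 37.9, 39.0 and 44.4 with 25(OH)D + BGP, 39.8, 59.8 and 59.7 with 25(OH)D alone and 25.7, 28.2 and 21.6 in control. Without overlap, the 25(OH)D libraries were above those of ZK191784 and of control. Its log2 fold change was 1.08 ± 0.19 against control (adjusted p = 0.00292), and -0.87 ± 0.19 with ZK191784 against 25(OH)D alone (adjusted p = 0.0217). The second call was lost in 7 of 13 alternatives, among them without 25(OH)D library 2 or 3 or any 1 ZK191784 library (adjusted p from 0.079 to 0.135). Slc25a27, a homologue of the uncoupling proteins, had 39.3, 29.7 and 33.5 CPM with 25(OH)D and 16.1, 14.8 and 23.8 in control. The groups did not overlap, and the log2 fold change was 0.91 ± 0.24 (adjusted p = 0.0308), lost without any 1 of the 25(OH)D libraries or control library 1 or 2 (adjusted p from 0.0538 to 0.157). This call was also lost in the fit of the 2 groups alone. Slc25a3, with the most counts of the class, differed by 0.38 ± 0.31 (adjusted p = 0.557).

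The 9 carriers of sugars and inositol gave 1 higher (Slc37a2) and 3 lower with 25(OH)D against control. Slc37a2, a glucose-6-phosphate/phosphate antiporter of the endoplasmic reticulum, had 3.07, 0.482 and 2.83 CPM with 25(OH)D + ZK191784, 9.54, 10.1 and 12.1 with 25(OH)D + BGP, 13.1, 12.8 and 10.3 with 25(OH)D alone and 0.24, 0.632 and 0.714 in control. These are 30 counts with ZK191784, 144 with BGP, 141 with 25(OH)D and 7 in control. The 25(OH)D and BGP libraries were far above the others, and ZK191784 and control overlapped. The fitted log2 fold change was 4.43 ± 0.55 with 25(OH)D against control (adjusted p = 0.000229) and -2.47 ± 0.46 with ZK191784 against 25(OH)D alone (adjusted p = 0.00885). Its relative Slc37a3, which with its partner protein Atraid lets bisphosphonates leave lysosomes, had 227, 178 and 175 CPM with 25(OH)D + ZK191784, 87.8, 131 and 94.1 with 25(OH)D + BGP, 114, 109 and 94.8 with 25(OH)D alone and 189.7, 219.6 and 235 in control. The 25(OH)D and BGP libraries were under those of ZK191784 and control. Its log2 fold change was -1.02 ± 0.18 with 25(OH)D against control (adjusted p = 0.00272) and 0.86 ± 0.18 with ZK191784 against 25(OH)D alone (adjusted p = 0.0163). The second call was lost without 25(OH)D library 2 or 3 or ZK191784 library 1 or 2 (adjusted p from 0.0503 to 0.0761).

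Slc2a10, a glucose and dehydroascorbate carrier, had 61.0, 46.5 and 38.9 CPM with 25(OH)D + ZK191784, 17.7, 21.4 and 32.2 with 25(OH)D + BGP, 34.2, 25.8 and 13.5 with 25(OH)D alone and 86.8, 64.5 and 183 in control. Control library 3 was far above the rest, and the 25(OH)D libraries were all under control and under ZK191784. It fell by 2.18 ± 0.42 on the log2 scale with 25(OH)D against control (adjusted p = 0.00488), while the difference of ZK191784 from 25(OH)D alone was 0.99 ± 0.41 (adjusted p = 0.34, not called). Slc5a3, the sodium/myo-inositol cotransporter, had 47.1, 44.1 and 51.8 CPM with 25(OH)D and 77.2, 66.6 and 72.8 in control. The groups did not overlap, and the log2 fold change was -0.60 ± 0.14 (adjusted p = 0.0176), lost without 25(OH)D library 1 or 2 or control library 1 (adjusted p from 0.0661 to 0.115). The call was also lost with no low-count filter and in the fit of the 2 groups alone, and the highest adjusted p over the alternatives was 0.150.

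Of 3 nucleoside carriers, 1 rose and 1 fell. Slc29a1, the equilibrative nucleoside carrier of the plasma membrane, had 138, 122 and 68.4 CPM with 25(OH)D and 32.1, 39.2 and 66.4 in control. Slc29a3, its lysosomal and mitochondrial relative, had 52.7, 60.0 and 93.0 CPM with 25(OH)D and 159, 151 and 98.0 in control. In both genes library 3 of each group lay towards the other group, though the groups did not overlap. The log2 fold changes were 1.26 ± 0.31 for Slc29a1 (adjusted p = 0.0251) and -0.99 ± 0.25 for Slc29a3 (adjusted p = 0.0282). Each call was lost without 25(OH)D library 1 or 2 or control library 1 or 2, with adjusted p from 0.092 to 0.121 for Slc29a1 and from 0.109 to 0.157 for Slc29a3. With the replicate number as a block they were 0.0733 and 0.0756. Both calls were also lost in the fit of the 2 groups alone. Of the nucleotide sugar, vitamin, fatty acid and sodium-proton carriers, 0 were called in either comparison by edgeR. At an unadjusted p under 0.05 with 25(OH)D against control there were 0, 1, 1 and 2, of which DESeq2 called the fatty acid carrier Slc27a3 (chosen after its values were seen). With ZK191784 against 25(OH)D alone there were 0, 1, 0 and 1, and DESeq2 called 0. In these classes Slc35a4, Slc23a2, Slc27a4 and Slc9a8 had the most counts, and with 25(OH)D against control they differed by -0.08 ± 0.24, 0.59 ± 0.27, -0.15 ± 0.24 and 0.01 ± 0.16 on the log2 scale.

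**Figure D3:**
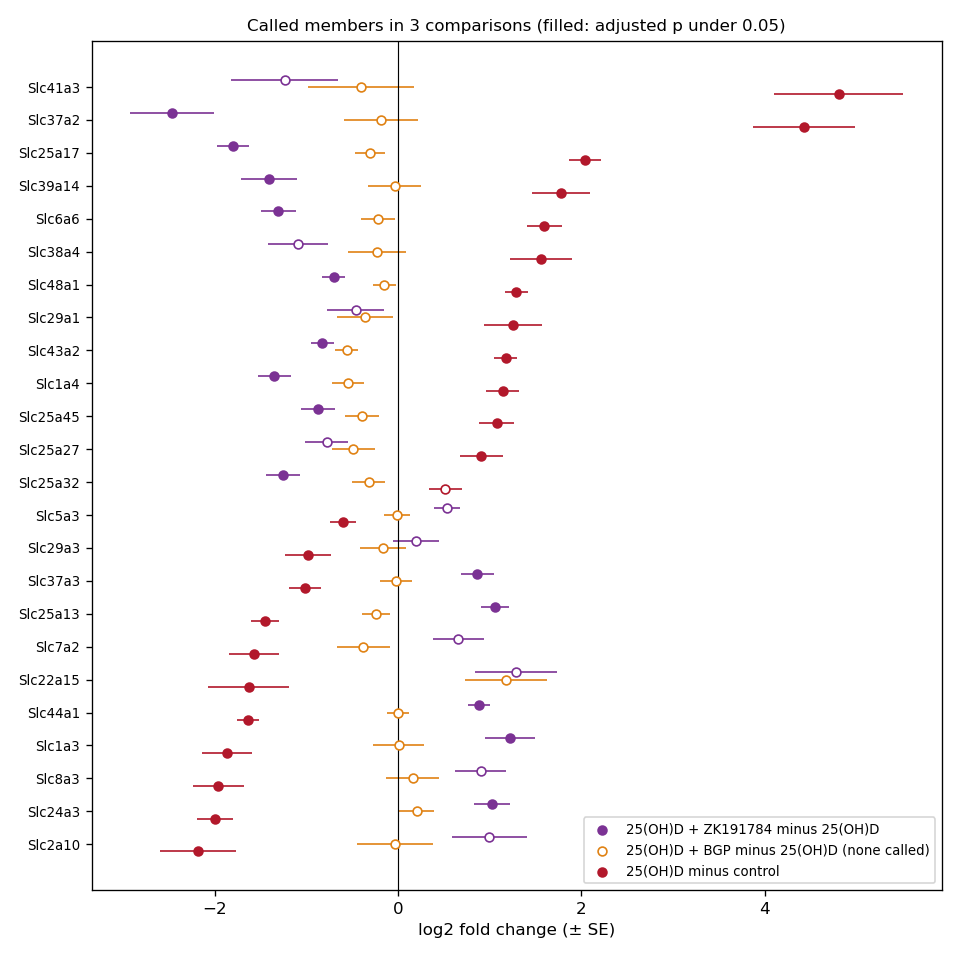
Log2 fold change ± SE of every member called with 25(OH)D against control or with 25(OH)D + ZK191784 against 25(OH)D, beside the BGP comparison; filled symbols are called at an adjusted p under 0.05, and 0 is marked by a line. Slc41a3 and Slc37a2 have the largest positive values with 25(OH)D against control (4.81 and 4.43), and no value of the BGP comparison is called. Slc37a2 is shown as a description, since it met the count rule only through the 25(OH)D and BGP groups.

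Adding BGP to 25(OH)D changed 0 of 139 members and 0% of all genes against 25(OH)D alone by edgeR, and DESeq2 called 0 members too. At an unadjusted p under 0.05 there were 3 members, and 11 had groups that did not overlap, beside 6.04% of all genes tested. The median log2 difference was -0.10, beside -0.02 over all genes, and the values ran from -0.76 to 1.18. The 3 members were Slc43a2 (-0.56 ± 0.12, unadjusted p = 0.000674), Slc1a4 (-0.55 ± 0.17, 0.00851) and Slc22a15 (1.18 ± 0.45, 0.0218), all with an adjusted p of 1.00. The amino acid carriers Slc43a2 and Slc1a4 had lower levels in every BGP library than in every 25(OH)D library, as their values above show. When the library ratio was a covariate, Slc43a2 was called (-0.56 ± 0.11, adjusted p = 0.0276). A p that misses the threshold does not show that BGP left these genes as they were.

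Both combinations were also set against control. With BGP, 20 members differed from control, 9 higher and 11 lower, beside 8.25% of all genes (3.90% higher and 4.35% lower). The largest values were those of Slc41a3 (4.40 ± 0.70) and Slc37a2 (4.24 ± 0.56) upward, and Slc2a10 (-2.22 ± 0.42) and Slc7a2 (-1.96 ± 0.28) downward. With ZK191784, 3 members differed from control, beside 0.723% of all genes (0.507% higher and 0.215% lower). These were the magnesium carrier Slc41a3 (higher) and the calcium exchanger Slc24a3 and the choline carrier Slc44a1 (lower), with the values given above. Each of the 3 calls was lost in some alternatives. Slc41a3 was lost without ZK191784 library 1 or 2 or any 1 control library (adjusted p from 0.0535 to 0.219). It was also lost with no low-count filter and with the replicate number as a block, and its highest adjusted p over the alternatives was 0.252. Slc24a3 was lost without any 1 ZK191784 library or control library 1 or 2 (0.105 to 0.224), and so was Slc44a1 (0.0502 to 0.0853). Both were also lost with the replicate number as a block and in the fit of the 2 groups alone. The highest adjusted p of Slc44a1 over the alternatives was 0.114. Slc48a1, at 0.59 ± 0.12, lay just outside the threshold (adjusted p = 0.0589).

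**Figure D4:**
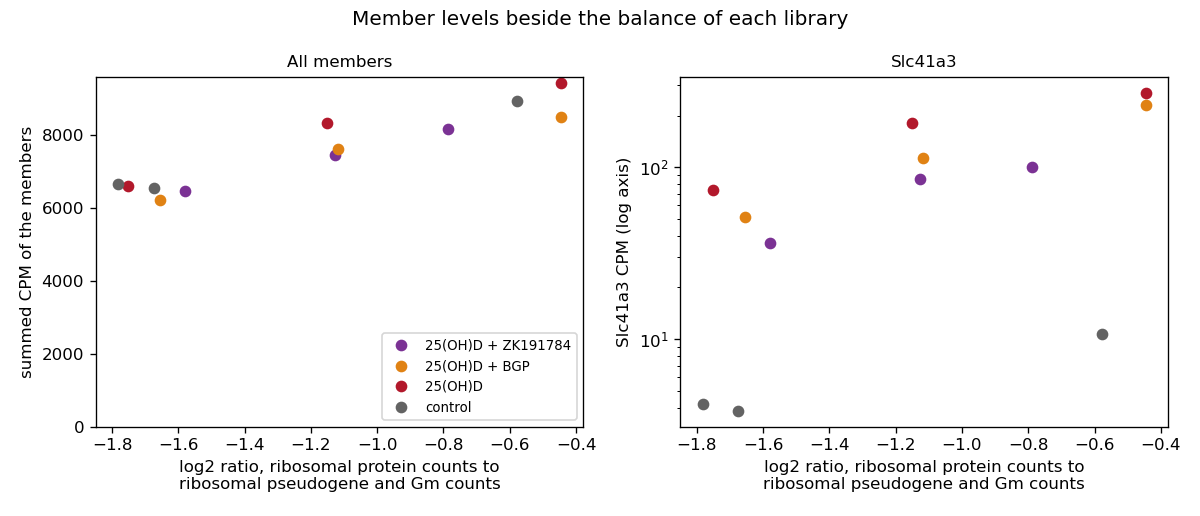
Summed CPM of all members (left) and CPM of Slc41a3 (right, log axis) in each library against the log2 ratio of ribosomal protein gene counts to ribosomal pseudogene and Gm-numbered counts, coloured by group. In every group the library with the highest ratio has the highest member sum, and Slc41a3 stays apart from control in the libraries with 25(OH)D at every ratio.

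The summed level of the mitochondrial carriers ran from 2033 to 3608 CPM over the libraries, that of the amino acid carriers from 1243 to 2086, and that of the metal ion carriers from 747 to 1352. When the library ratio was added as a covariate, 49 members were called with 25(OH)D against control, 24 higher and 25 lower, and 35 with ZK191784 against 25(OH)D alone, 12 higher and 23 lower. The calls also rose over all 14394 genes tested: this fit gave 2854 and 1643 in these comparisons, beside 1250 and 508 without the ratio. The rise is therefore not particular to the members. Slc3a2 was among the members called, with a log2 fold change of 0.80 ± 0.12 with 25(OH)D against control (adjusted p = 4.67e-06). Slc36a2 was another, at 1.11 ± 0.11 with ZK191784 against 25(OH)D alone (adjusted p = 2.72e-10). The ratio was chosen with these data known, so these counts describe the fit and are no independent support.

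Genes that work with these carriers were followed in 4 lists. Over all genes tested, 8.68% were called with 25(OH)D against control and 3.53% with ZK191784 against 25(OH)D alone. With lists this short, counts of a few calls are not read as a result about a list. Of 16 tested genes of amino acid and glutathione metabolism, 0 rose and 1 fell with 25(OH)D against control (list median 0.08, beside -0.05 over all genes). This was Psat1, an enzyme of serine synthesis, with 43.6, 34.5 and 41.5 CPM with 25(OH)D + ZK191784, 18.8, 24.4 and 25.1 with 25(OH)D + BGP, 24.3, 18.1 and 19.5 with 25(OH)D alone and 71.0, 76.9 and 67.3 in control. Control was the highest, ZK191784 lay between, and 25(OH)D and BGP overlapped. Its log2 fold change was -1.80 ± 0.18 with 25(OH)D against control (adjusted p = 4.81e-05) and 0.95 ± 0.18 with ZK191784 against 25(OH)D alone (adjusted p = 0.0109), the 1 call of the list there. DESeq2 called 3 genes of the list in the first comparison and 4 in the second. Of 13 tested genes of zinc, iron and copper handling, 2 rose (the heme oxygenase Hmox1, 1.63 ± 0.33, and the copper pump Atp7a, 0.52 ± 0.15) and 2 fell. Those that fell were ceruloplasmin (Cp), the ferroxidase, at -1.16 ± 0.18 (adjusted p = 0.00124), and the metalloreductase Steap3, at -2.39 ± 0.57 on few counts. With ZK191784 against 25(OH)D alone, Cp was higher (0.81 ± 0.18, adjusted p = 0.027) and Hmox1 lower (-1.34 ± 0.32, adjusted p = 0.0395).

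Of 16 tested genes of sulfate activation and sulfation, 2 rose with 25(OH)D against control and 0 fell, beside 4.76% and 3.93% of all genes. Sulf2, an extracellular sulfatase that trims heparan sulfate, had 437, 326 and 196 CPM with 25(OH)D + ZK191784, 333, 893 and 589 with 25(OH)D + BGP, 1077, 819.6 and 363 with 25(OH)D alone and 44.8, 38.6 and 57.8 in control. All libraries with 25(OH)D were above control, and within each group they followed the library ratio. The log2 fold change was 4.00 ± 0.47 with 25(OH)D against control (adjusted p = 0.000137). Chst15, a chondroitin sulfotransferase, rose by 0.96 ± 0.16 (adjusted p = 0.00172) and was lower with ZK191784 than with 25(OH)D alone (-0.84 ± 0.16, adjusted p = 0.00932). Of 10 tested organic anion polypeptides and ABC exporters, 0 were called with 25(OH)D against control (2 at an unadjusted p under 0.05 and 2 by DESeq2) and 1 with ZK191784 against 25(OH)D alone, the cyclic nucleotide and prostanoid exporter Abcc4 (-0.60 ± 0.14, adjusted p = 0.0315). BGP against 25(OH)D alone gave 0 calls in the 4 lists by edgeR and by DESeq2, and 0 at an unadjusted p under 0.05.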

How the data were processed

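Transcripts were measured by QuantSeq 3′ mRNA-seq on TRIzol RNA of 12 libraries, 3 in each of 4 groups. The values are the deposited read counts of each gene symbol in each library, and per the submitters' processing notes STAR 2.7.9a, featureCounts, Subread 2.0.3, DESeq2 1.38.2 and genome mm39 were used. No source used here gives the strand setting or annotation release, so overlapping and antisense genes cannot be told apart. The table had 56691 genes, 20212 of them at 0. Where a symbol was repeated (882 entries), the entry with most counts kept it.

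Groups were taken from the labels. edgeR 4.0.16 (R 4.3.3) with TMM, filterByExpr (min.count 10, min.total.count 15, leaving 14394 genes with 99.4% of counts) and a robust quasi-likelihood fit to all 12 libraries was used, with Benjamini-Hochberg adjustment over all tested genes. Calls are at an adjusted p under 0.05. SEs are the absolute log2 fold change over the square root of F. CPM are TMM-scaled. The common biological coefficient of variation was 0.292. DESeq2 1.42.0, RLE, 2 other filters, a replicate block, the 2 groups alone, a library ratio covariate and leaving out each library were alternatives. The method was tested on simulated counts drawn independently for each gene. They lack the library ratio differences seen here, so the test does not cover those. Figures were drawn with matplotlib 3.10.9.

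Members, substrate classes and lists were chosen with earlier results of these data known. The text names 22 core symbols, of which 17 are members, the called members with the largest changes (up to 12 each way per comparison), the member with most counts in each class, those nearest the threshold and up to 3 called genes per list. Atp7a is named beyond this because the list had 4 calls, and Slc7a7 because its window held a motif. Slc36a2, Slc27a3 and Slc26a7 are named beyond it after their values were seen. Classes of Slc43a3 and Slc2a9 were set after the members were listed. Of the core symbols, Slc7a11, Slc39a8, Slc13a4 and Slc22a5 (43, 106, 126 and 93 counts) are no members, and 1 is not reported here. Whether replicate numbers pair samples was not settled: of 18 same-numbered pairs across groups, 4 had a correlation of deviations over 0.1. No 2 libraries agreed within sampling noise.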

Additional observations from a re-analysis of the deposited data

How the results depend on the processing

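No call of a member was reversed in any alternative. With 25(OH)D against control the count of 23 members ranged from 18 to 28 on leaving out 1 library, and 17 of the 23 remained called in all 13 alternatives. With ZK191784 against 25(OH)D alone the count of 14 ranged from 10 to 12, and 10 of the 14 remained called throughout. With BGP against 25(OH)D alone it ranged from 0 to 0. With BGP against control the count of 20 ranged from 15 to 18, and with ZK191784 against control the count of 3 ranged from 0 to 3. The library ratio as a covariate raised the 5 counts to 49, 35, 1, 50 (BGP against control) and 13 (ZK191784 against control). For ZK191784 against control DESeq2 gave 7, no low-count filter 7 and the 2 groups alone 1. The causes were not tested. Whether the replicate numbers pair the samples was not settled (correlations of deviations from -0.736 to 0.646, and 2 of 12 libraries matched their own number best). With the number as a block, 20 members were called with 25(OH)D against control, 13 with ZK191784 and 0 with BGP against 25(OH)D alone, 19 with BGP against control and 0 with ZK191784 against control. Over all genes the library ratio as a covariate gave 2854 calls with 25(OH)D against control (1250 without it) and 1643 with ZK191784 against 25(OH)D alone (508 without it). Depth limits members with few counts, such as Slc22a15 and Slc37a2.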
